A study of Homo sapiens with 8 samples.

Results

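The proteasome genes are the genes whose symbols match PSM, a letter from A to G and a number: the subunits of the proteasome core, of its regulatory cap, and the activators, inhibitor and assembly factors named with them. The deposited table held 48 such genes among 24462, with rows of 1 symbol summed: 19 core genes (PSMA and PSMB), 20 cap genes (PSMC and PSMD) and 9 activator and assembly genes (PSME, PSMF and PSMG). They were picked by symbol, with earlier results of these data known. RNA sequencing was done on HepG2 cells, an established human line from a hepatocellular carcinoma, with 4 libraries with EDN1 overexpression (labelled EDN1 O/E) and 4 libraries labelled mock, called EDN1 1 to EDN1 4 and mock 1 to mock 4 below by their replicate numbers. Both groups were grown in the same medium with serum and antibiotics and had no treatment. The product of EDN1 is processed to endothelin-1, a peptide known for constricting blood vessels. The labels do not say how the overexpression was made, what the mock cells received, or whether libraries of 1 group stem from separate cultures or from 1 clone. The spread behind each p-value may therefore be technical.

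The proteasome degrades proteins tagged with ubiquitin. Its core is a barrel of stacked rings: PSMA proteins form the outer rings, which gate the entrance, and PSMB proteins form the inner rings, which hold the cutting sites. The cap, made of PSMC ATPases and PSMD proteins, binds the ubiquitin chain, removes it, unfolds the substrate and feeds it into the barrel. When proteasome activity falls short, the transcription factor NFE2L1 is known to raise subunit genes together through antioxidant response elements in their promoters, and interferon is known to raise a second set of cutting subunits, the immunoproteasome.

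An antioxidant response element is bound by NFE2L1 or NFE2L2 with a small MAF protein, and its letters, TGACNNNGC, were searched on both strands of the 250 bases before the start of each gene in RefSeq (GRCh38.p14). Of the 48 proteasome genes, 42 matched an entry by symbol, and 13 of these held the letters (31%), against 13.2% of all 27305 genes with an entry. PSMA7, PSMB1, PSMB6, PSMB7, PSMD4 and PSMG3 had no match. The letters overlap in part with the AP-1 motif TGACTCA. A window is shown for 6 genes that cover the core, the cap and the activators, to give the sequence behind these matches, 5′ to 3′ on the gene's own strand, with the matched letters in capitals and the motif on the reverse strand in PSMC5.
PSMA4 (outer ring; chr15:78540635-78540693, plus strand, 126 bases before the start): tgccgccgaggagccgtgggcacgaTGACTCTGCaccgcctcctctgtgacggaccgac
PSMB3 (inner ring; chr17:38752612-38752670, plus strand, 104 bases before the start): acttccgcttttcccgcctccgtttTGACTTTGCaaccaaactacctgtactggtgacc
PSMC5 (cap ATPase; chr17:63827639-63827697, plus strand, 57 bases before the start): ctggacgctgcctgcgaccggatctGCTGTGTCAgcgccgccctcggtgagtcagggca
PSMD3 (cap; chr17:39980745-39980803, plus strand, 37 bases before the start): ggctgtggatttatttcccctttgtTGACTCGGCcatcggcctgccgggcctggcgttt
PSME1 (activator; chr14:24136083-24136141, plus strand, 86 bases before the start): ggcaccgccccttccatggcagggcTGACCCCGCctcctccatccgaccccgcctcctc
PSME2 (activator; chr14:24146752-24146810, minus strand, 175 bases before the start): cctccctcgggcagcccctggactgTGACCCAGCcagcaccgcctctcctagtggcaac
A match is a description of letters, and binding was not measured here.

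Total counts ranged from 8571252 to 11686180 in EDN1 overexpression and from 8409173 to 14932385 in mock. EDN1 itself had 2803, 2284, 4764 and 4752 counts in EDN1 1 to 4, against 29, 9, 9 and 20 in mock 1 to 4, so each library matched its label. The 10 liver markers were all measured, with a summed level of 7990 to 10100 CPM (counts scaled to a common library total) in EDN1 overexpression and 7170 to 10200 CPM in mock. Of the 8 blood and immune markers, CD3E had 0 counts in all libraries and PTPRC and HLA-DRA at most 1 count. The list's sum of 421 to 804 CPM in EDN1 overexpression and 463 to 811 CPM in mock came mainly from LYZ. Fibroblast markers summed to at most 7.70 CPM in EDN1 overexpression and 8.70 CPM in mock. Mock 4, EDN1 3 and EDN1 4 lay all below the other 5 libraries in 13.4% of all genes and all above them in 9.83%. They were chosen with earlier results of these data known, and they were not all close to each other. No label gives a batch. Values without these 3 libraries, called below the 3 that stood apart, are given beside the main ones.

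EDN1 overexpression was compared with mock to ask whether proteasome gene expression differed with it. None of the 46 proteasome genes that passed the filter on low counts was called at an adjusted p of 0.05 (edgeR's quasi-likelihood test, Benjamini-Hochberg adjustment over 12577 genes), where 0.00795% of all genes were called, that is, EDN1 alone. At an unadjusted p of 0.05 the count was also 0 of 46, against 2.85% of all genes, and it was 0 with DESeq2 and with limma voom. In 0 of 46 did the 4 EDN1 overexpression libraries lie wholly apart from the 4 mock libraries, against 2.04% of all genes. Log2 fold changes of EDN1 overexpression over mock ran from -0.43 (PSMB1) to 0.36 (PSMA1), with a median of 0.03 against 0.00 over all genes, and 29 were positive (63%, against 50.3% of all genes) and 17 negative. The 95% interval lay within 2-fold either way for 45 of the 46, PSMB1 being the exception, and for 79.4% of all genes. It lay within 1.5-fold for 27 of the 46 (58.7%), against 38.2% of all genes. Levels were not matched in these shares: 45 of the 46 had a mean of at least 10 CPM, against 8697 of all 12577 genes. Changes smaller than the 95% intervals were not detectable with 4 libraries a group.

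**Figure D1:**
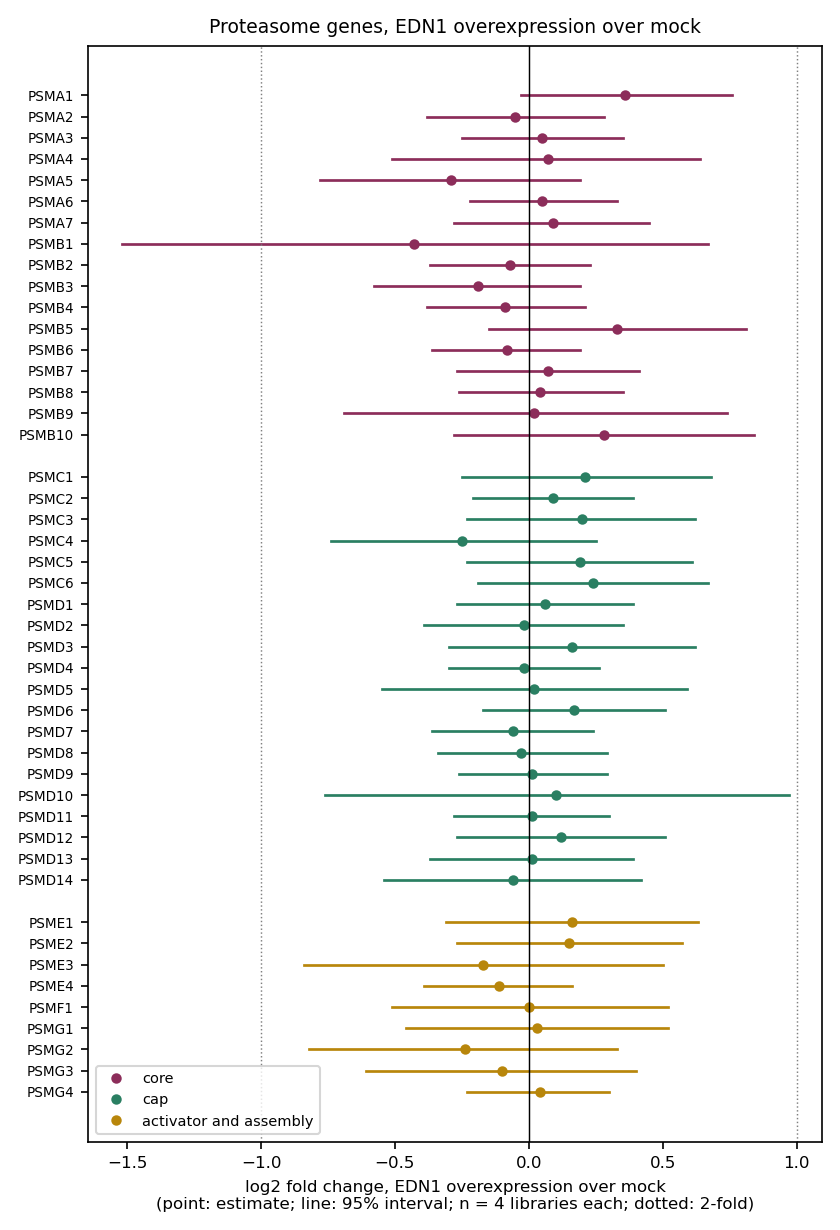
Log2 fold change of EDN1 overexpression over mock for the 46 tested proteasome genes (points) with 95% intervals (lines), n = 4 libraries each, by subunit group. Every interval spans 0, from PSMA1 (-0.03 to 0.76) at the upper end to PSMB1 (-1.52 to 0.67), the widest.

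The outer ring genes PSMA1 to PSMA7 were all tested, with 5 positive and 2 negative fold changes. PSMA1 had 83.4, 64.1, 110 and 87.3 CPM in EDN1 1 to 4 (here and for all single genes, scaled by TMM), against 62.1, 64.6, 62.2 and 78.8 CPM in mock 1 to 4. EDN1 3 was the highest library, and EDN1 2 lay within the mock range. PSMA1 averaged 86.2 ± 18.8 CPM in EDN1 overexpression and 66.9 ± 7.98 CPM in mock (SD, n = 4 each). Its log2 fold change of 0.36 (SE 0.18, unadjusted p = 0.0657, adjusted p = 1, edgeR) had the smallest p of all proteasome genes. It was 0.48 without EDN1 2, 0.23 without EDN1 3 and 0.23 without the 3 libraries that stood apart. PSMA5, another outer ring gene, had 47.5, 58.1, 29.5 and 38.7 CPM in EDN1 1 to 4, against 53.0, 60.4, 59.0 and 40.5 CPM in mock. EDN1 3 and EDN1 4 lay below the mock range. The 3 lowest libraries of PSMA5 were EDN1 3, EDN1 4 and mock 4. Its log2 fold change of -0.29 (SE 0.22) was -0.12 without those libraries and -0.46 without EDN1 2. PSMA6 varied least of this ring, from 129 to 141 CPM in EDN1 overexpression and from 120 to 143 CPM in mock. PSMA8, a testis form of an outer ring subunit, had 0 counts in all 8 libraries, which allows up to 0.257 to 0.350 CPM in EDN1 overexpression and 0.201 to 0.357 CPM in mock (3 counts, counting error only).

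The 3 cutting subunits of the standard core are encoded by PSMB5, PSMB6 and PSMB7, known for cutting after hydrophobic, acidic and basic residues. PSMB5, the main target of the drug bortezomib, had 525, 471, 831 and 638 CPM in EDN1 1 to 4, against 445, 396, 481 and 641 CPM in mock. EDN1 3 was highest, and mock 4 exceeded the other 3 EDN1 overexpression libraries. The log2 fold change was 0.33 (SE 0.22, 95% interval -0.15 to 0.81, unadjusted p = 0.157, adjusted p = 1, edgeR), 0.15 without EDN1 3 and 0.18 without the 3 libraries that stood apart. PSMB6 was steady, with 243, 250, 234 and 230 CPM in EDN1 1 to 4, against 234, 274, 259 and 248 CPM in mock. The log2 fold change of -0.08 had an interval of -0.36 to 0.19. PSMB7 had 595, 480, 679 and 650 CPM in EDN1 1 to 4, against 570, 587, 505 and 623 CPM in mock. On the log2 scale it differed by 0.07 (interval -0.27 to 0.41) and turned to -0.04 without the 3 libraries that stood apart.

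Their immunoproteasome counterparts PSMB8, PSMB9 and PSMB10, which replace PSMB5, PSMB6 and PSMB7 in the core, were also detected. PSMB8 had 40.7, 35.2, 35.1 and 35.7 CPM in EDN1 1 to 4, against 40.6, 34.2, 33.4 and 34.3 CPM in mock. Library 1 was the high one in both groups, and the log2 fold change was 0.04 (interval -0.26 to 0.35). PSMB8 shares its locus with the antisense gene PSMB8-AS1 (17.6 ± 2.10 CPM in EDN1 overexpression and 17.1 ± 1.09 CPM in mock, SD, n = 4 each). No source used here says whether counting used the strand, so reads of the pair cannot be told apart. The same limit holds for PSMA3 with PSMA3-AS1 (means of 29.8 CPM in EDN1 overexpression and 28.8 CPM in mock). It also holds for PSMD5 with PSMD5-AS1 (6.31 CPM in EDN1 overexpression and 6.32 CPM in mock). PSMB9 was near 7 CPM, with 112, 74, 69 and 31 counts in EDN1 1 to 4, against 79, 81, 49 and 74 in mock. Its interval, -0.69 to 0.74 on the log2 scale, was wider than that of PSMB8. PSMB10 had 55.2, 39.8, 70.6 and 31.2 CPM in EDN1 1 to 4, against 48.5, 29.6, 42.8 and 41.1 CPM in mock. EDN1 1 and EDN1 3 lay above the mock range and EDN1 2 and EDN1 4 within it. The log2 fold change of 0.28 (SE 0.25) was 0.06 without EDN1 3 and 0.45 without EDN1 4. PSMB11, a form known from the thymus, had 1 count in mock 4 and 0 elsewhere.

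Since PSMB8, PSMB9 and PSMB10 take the places of PSMB5, PSMB6 and PSMB7, their share of the counts of all 6 genes was taken within each library, which no scaling changes. The share was 7.15%, 6.49%, 6.02% and 4.44% in EDN1 1 to 4, against 7.08%, 5.55%, 6.17% and 5.06% in mock 1 to 4. Exact binomial 95% intervals reached from 4.10% to 7.54% in EDN1 overexpression and from 4.78% to 7.47% in mock and cover counting error only. It averaged 6.02 ± 1.16% in EDN1 overexpression and 5.96 ± 0.872% in mock (SD, n = 4 each), a difference of 0.0601 percentage points (two-sided exact permutation test, p = 0.971, or 0.971 with Benjamini-Hochberg adjustment for the 4 shares compared, where 0.0286 is the smallest possible). EDN1 4 and mock 4 had the lowest shares of their groups. By pairs, PSMB8 was 5.87 ± 1.47% of PSMB8 and PSMB5 counts in EDN1 overexpression, against 6.97 ± 1.5% in mock (SD, n = 4 each; exact permutation p = 0.314). PSMB9 of PSMB9 and PSMB6 was 2.73 ± 0.918% in EDN1 overexpression, against 2.57 ± 0.680% in mock (exact permutation p = 0.771, n = 4 each). PSMB10 of PSMB10 and PSMB7 was 7.54 ± 2.10% in EDN1 overexpression, against 6.66 ± 1.45% in mock (exact permutation p = 0.571, n = 4 each). With counts divided by the deposited gene length, the share of all 3 was 5.87 ± 1.23% in EDN1 overexpression and 5.64 ± 0.837% in mock. Tags read near the end of a transcript, as here, need not grow with gene length, so this share is not a correction.

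**Figure D2:**
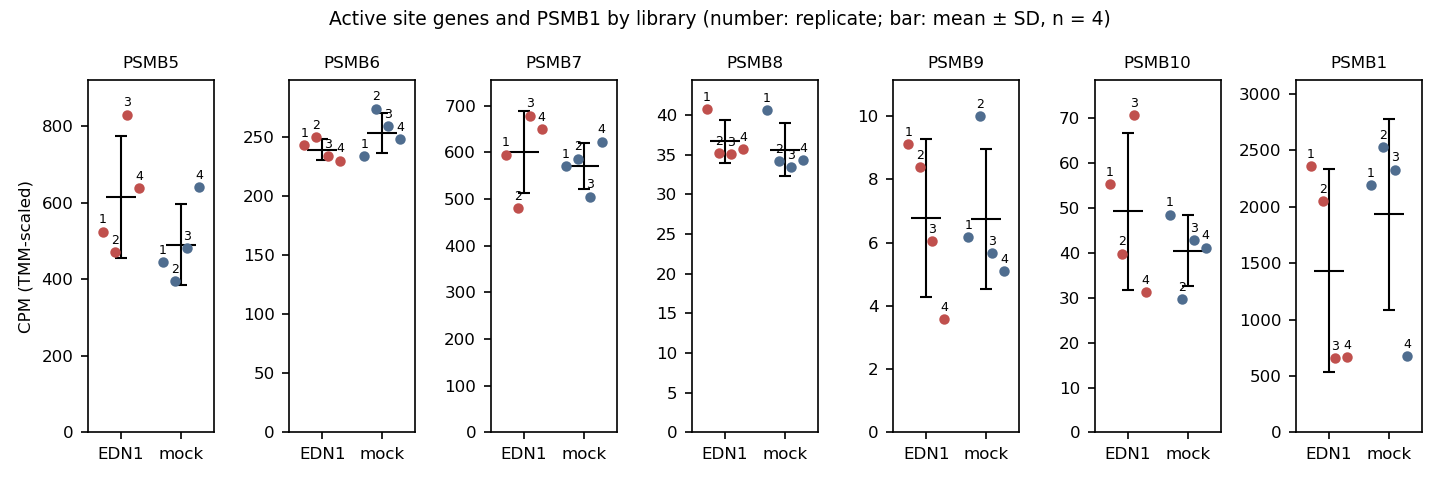
CPM (TMM-scaled) of the cutting subunit genes of the standard core (PSMB5, PSMB6, PSMB7), of the immunoproteasome (PSMB8, PSMB9, PSMB10) and of PSMB1, with EDN1 overexpression left of mock, 1 point a library numbered by replicate, and bars for the mean ± SD (n = 4). The groups overlap in all 7 genes, and PSMB1 splits into 3 libraries at 659 to 677 CPM and 5 at 2050 to 2530 CPM.

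PSMB1, an inner ring subunit without a cutting site, gave the largest difference between libraries of any proteasome gene (it was singled out after its values were seen). It had 2360, 2050, 659 and 665 CPM in EDN1 1 to 4, against 2190, 2530, 2330 and 677 CPM in mock. The 3 low libraries were those that stood apart over many genes, and the lowest of the other 5 was 3.03 times the highest of the 3. A gap of at least 2-fold between these 3 libraries and the other 5 was found in 1 of 46 proteasome genes and in 1.14% of all genes. PSMB1 made up 45.3% and 45.1% of all core gene counts in EDN1 1 and EDN1 2 but 16.6% and 19.2% in EDN1 3 and EDN1 4, against 45.2%, 50.2% and 46.9% in mock 1 to 3 and 18.7% in mock 4. The log2 fold change of -0.43 (SE 0.50) was -0.78 without EDN1 1, -0.19 without EDN1 3 or EDN1 4, -0.09 without the 3 libraries and -0.07 with a term for them, so the value over all libraries went with their number in each group, 2 of 4 in EDN1 overexpression and 1 of 4 in mock. Kits of this type read tags near the end of a transcript, so a change in the level of PSMB1 and a change in which transcript end was counted cannot be told apart. The other inner ring genes without a cutting site were PSMB2, PSMB3 and PSMB4, at -0.07 (SE 0.14), -0.19 (SE 0.17) and -0.09 (SE 0.13) on the log2 scale.

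Over the whole core, 10 of 17 tested genes had positive and 7 negative fold changes, and the median was 0.04 on the log2 scale. The majority turned without EDN1 1 (6 positive and 11 negative), and without mock 2 or mock 4 (8 positive and 9 negative). Summed over the core, counts were 4372 ± 927 CPM of the library total in EDN1 overexpression and 4555 ± 701 CPM in mock (SD, n = 4 each), a ratio of 0.960. Without PSMB1, the sums were 2899 ± 365 CPM in EDN1 overexpression and 2647 ± 185 CPM in mock, a ratio of 1.10. With PSMB1 kept, the ratio ran from 0.88 (without EDN1 1) to 1.04 (without EDN1 4) with 1 library left out, and was 1.03 without the 3 libraries that stood apart. Both differences over all libraries were smaller than the SD between EDN1 overexpression libraries. Without PSMB1, the difference exceeded the mock SD of 185 CPM. These SDs describe single libraries, and neither difference was tested. Scaled by TMM, the sums without PSMB1 were 2843, 2498, 3314 and 2807 CPM in EDN1 1 to 4, against 2645, 2508, 2636 and 2941 CPM in mock 1 to 4.

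The cap ATPases PSMC1 to PSMC6, the ring that unfolds substrates, had positive fold changes in 5 of 6, with a median of 0.19. PSMC6 had 93.1, 62.2, 118 and 84.0 CPM in EDN1 1 to 4, against 74.5, 70.2, 69.2 and 88.8 CPM in mock. EDN1 1 and EDN1 3 lay above the mock range, EDN1 4 within it and EDN1 2 below it. Its log2 fold change of 0.24 (SE 0.19, unadjusted p = 0.244, adjusted p = 1, edgeR) was 0.08 without EDN1 3, 0.38 without EDN1 2 and 0.12 without the 3 libraries that stood apart. PSMC3 and PSMC5 were also highest in EDN1 3, at 154 and 219 CPM, and both were higher in EDN1 3, EDN1 4 and mock 4 than in the other 5 libraries. Their log2 fold changes of 0.20 and 0.19 were 0.01 and 0.00 without those libraries. PSMC1 had 57.3, 42.3, 52.1 and 29 CPM in EDN1 1 to 4, against 43.7, 33.6, 41.4 and 37.2 CPM in mock. EDN1 1 and EDN1 3 were its highest libraries and EDN1 4 its lowest. The difference was 0.21 on the log2 scale (SE 0.21), 0.33 without the 3 libraries that stood apart and 0.38 without EDN1 4. PSMC1 has 13 copies named as its pseudogenes in GENCODE 29, so some of its reads may be uncertain. PSMC4 went the other way, with 182, 155, 113 and 108 CPM in EDN1 1 to 4, against 163, 213, 169 and 117 CPM in mock. Its 3 lowest libraries were EDN1 3, EDN1 4 and mock 4, and its log2 fold change was -0.25 (SE 0.22), -0.11 without them, -0.10 without mock 2 and -0.40 without EDN1 1.

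The PSMD genes, the other proteins of the cap, lay near 0, with log2 fold changes from -0.06 (PSMD7 and PSMD14) to 0.17 (PSMD6) in all 14. PSMD4, a ubiquitin receptor, had 362, 354, 357 and 323 CPM in EDN1 1 to 4, against 353, 361, 376 and 328 CPM in mock. The difference was -0.02 on the log2 scale (interval -0.30 to 0.26). PSMD14, which cuts the ubiquitin chain off the substrate, had 127, 126, 199 and 188 CPM in EDN1 1 to 4, against 131, 141, 180 and 215 CPM in mock. It was highest in the 3 libraries that stood apart, and its log2 fold change was -0.06 (SE 0.22), or -0.25 without them. For the scaffold subunit genes, the log2 fold change was 0.06 (SE 0.15) in PSMD1 and -0.02 (SE 0.17) in PSMD2. PSMD11, a subunit of the cap's lid, had one of 0.01 (interval -0.28 to 0.30). PSMD6, another lid subunit, had 19.0, 17.2, 17.3 and 15.7 CPM in EDN1 1 to 4, against 16.8, 16.2, 14.8 and 13.9 CPM in mock. EDN1 4 lay within the mock range and the other 3 above it, and the log2 fold change of 0.17 (SE 0.15, unadjusted p = 0.293, adjusted p = 1, edgeR) was 0.19 without the 3 libraries that stood apart.

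PSMD5, PSMD9 and PSMD10 are named as cap subunits but are known as chaperones that help build the cap and leave it. PSMD9 was among the steadiest proteasome genes, with 267, 261, 261 and 258 CPM in EDN1 1 to 4, against 271, 248, 274 and 243 CPM in mock. PSMD10, also called gankyrin and known for its high level in liver tumours, had 14.3, 14.4, 25.4 and 41.5 CPM in EDN1 1 to 4, against 12.7, 21.6, 18.5 and 35.9 CPM in mock. It was highest in EDN1 4, mock 4 and EDN1 3, the 3 libraries that stood apart, in that order. The log2 fold change was 0.10 (interval -0.76 to 0.97) and -0.29 without these libraries. PSMD5 had 13.3 to 23.5 CPM in EDN1 overexpression and 11.7 to 23.4 CPM in mock, lowest in mock 4, EDN1 4 and EDN1 3.

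Over the whole cap, 14 of 20 genes had positive and 6 negative fold changes (median 0.04 on the log2 scale), and 11 of 20 were positive without the 3 libraries that stood apart. With library totals in place of TMM scaling it was 17 of 20, with a median of 0.08, where the median of all genes moved to 0.04. Summed cap counts were 3417 ± 293 CPM of the library total in EDN1 overexpression and 3273 ± 101 CPM in mock (SD, n = 4 each), a ratio of 1.04. Scaled by TMM, the cap sums were 3426, 3113, 3662 and 3307 CPM in EDN1 1 to 4, against 3254, 3245, 3338 and 3433 CPM in mock 1 to 4.

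**Figure D3:**
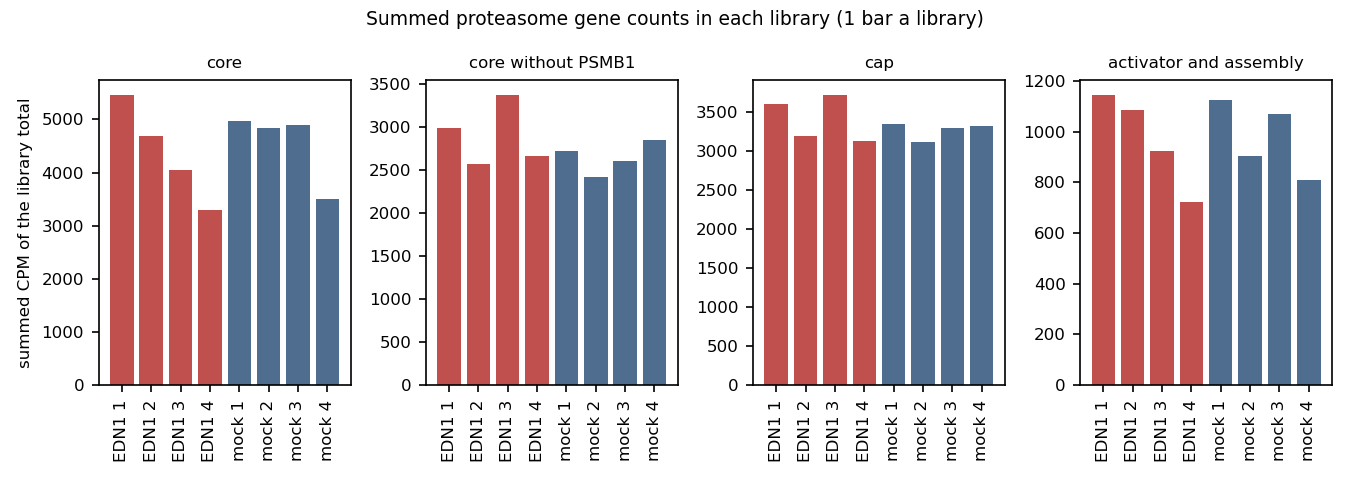
Summed counts of the core genes, the core genes without PSMB1, the cap genes and the activator and assembly genes in each library (CPM of the library total, 1 bar a library, EDN1 overexpression left of mock). The core is lowest in EDN1 4, mock 4 and EDN1 3 and, without PSMB1, highest in EDN1 3.

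Among the activators, PSME1 and PSME2, whose proteins form together a ring that opens the core and which interferon is known to raise, had like patterns. PSME1 had 122, 123, 86.7 and 71.9 CPM in EDN1 1 to 4, against 96.7, 87.5, 110 and 68.1 CPM in mock. PSME2 had 80.1, 80.9, 70 and 50.5 CPM in EDN1 1 to 4, against 77.6, 61.6, 64.4 and 50.2 CPM in mock. In both genes EDN1 1 and EDN1 2 were the highest libraries, and mock 4 and EDN1 4 the lowest. Over all libraries the log2 fold changes were 0.16 (SE 0.21) for PSME1 and 0.15 (SE 0.19, unadjusted p = 0.451, adjusted p = 1, edgeR) for PSME2. Without the 3 libraries that stood apart they were 0.32 and 0.24, and with a term for these libraries 0.29 and 0.25. They were near 0 without EDN1 1 (0.06 for PSME1 and 0.08 for PSME2), without EDN1 2 (0.05 and 0.08) and without mock 4 (0.04 and 0.05). With that term the unadjusted p of PSME1 was 0.0373 and the smallest adjusted p of all proteasome genes was 0.961 (edgeR, Benjamini-Hochberg). PSME3, which encodes a nuclear activator, had 190, 171, 118 and 73.9 CPM in EDN1 1 to 4, against 192, 138, 192 and 98.9 CPM in mock, lowest in EDN1 4, mock 4 and EDN1 3. The log2 difference of -0.17 (SE 0.30) was 0.05 without those libraries. PSME4, a large activator of a single chain, had 222, 237, 223 and 258 CPM in EDN1 1 to 4, against 251, 260, 244 and 262 CPM in mock. EDN1 1, EDN1 2 and EDN1 3 lay below the mock range, with EDN1 4 within it, and the log2 fold change was -0.11 (SE 0.12, unadjusted p = 0.38, adjusted p = 1, edgeR). PSMF1, which encodes a protein first known as an inhibitor of the core, had 64.4 to 143 CPM in EDN1 overexpression and 75.7 to 115 CPM in mock, with a log2 fold change of 0.00 (SE 0.23).

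PSMG1 to PSMG4 encode chaperones that assemble the outer ring. PSMG2 had 36.6, 45.3, 21.3 and 29.6 CPM in EDN1 1 to 4, against 38.8, 49.8, 43.0 and 25.9 CPM in mock. Its 3 lowest libraries were EDN1 3, mock 4 and EDN1 4. The log2 fold change of -0.24 (SE 0.26, unadjusted p = 0.364, adjusted p = 1, edgeR) was -0.10 without those libraries, -0.08 without EDN1 3 and -0.43 without EDN1 2. PSMG4 had the smallest spread of all proteasome genes, from 54.3 to 57.0 CPM in EDN1 overexpression and from 51.2 to 57.3 CPM in mock. The other two had 0.03 (SE 0.22, PSMG1) and -0.10 (SE 0.23, PSMG3) on the log2 scale. Of the 9 activator and assembly genes, 5 had positive and 4 negative fold changes, with a median of 0.00; the split ran from 4 and 5 to 7 and 2 (without EDN1 4) with 1 library left out. Their summed counts were 969.6 ± 190 CPM of the library total in EDN1 overexpression and 975.6 ± 145 CPM in mock (SD, n = 4 each).

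Across libraries, the proteasome genes did not move as 1 block. In 19 of 46 the libraries mock 4, EDN1 3 and EDN1 4 all lay to one side of the other 5, below in 11 (23.9%, against 13.4% of all genes) and above in 8 (17.4%, against 9.83%). The 11 were PSMA2, PSMA5, PSMB1, PSMB3, PSMC4, PSMD5, PSMD13, PSME1, PSME3, PSMF1 and PSMG2. The 8 were PSMB5, PSMB7, PSMC3, PSMC5, PSMD3, PSMD10, PSMD12 and PSMD14, so core and cap genes stood on both sides while the 4 activator and assembly genes were all on the low side. EDN1 3 was the highest library in 12 of 46 genes (26.1%, against 18.3% of all genes) and EDN1 1 in 10 (21.7%, against 10.9%). EDN1 4 was the lowest in 13 (28.3%, against 17.6%). EDN1 overexpression libraries thus held both highest and lowest values among proteasome genes, and they did so over all genes too. Of all genes, EDN1 3 was the lowest library in 16.3% and EDN1 4 the highest in 17.5%. The highest library was less than 1.5 times the lowest in 18 of the 45 proteasome genes with at least 10 CPM (40%), against 25.8% of all 8697 genes at that level (mean levels were not matched further).

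**Figure D4:**
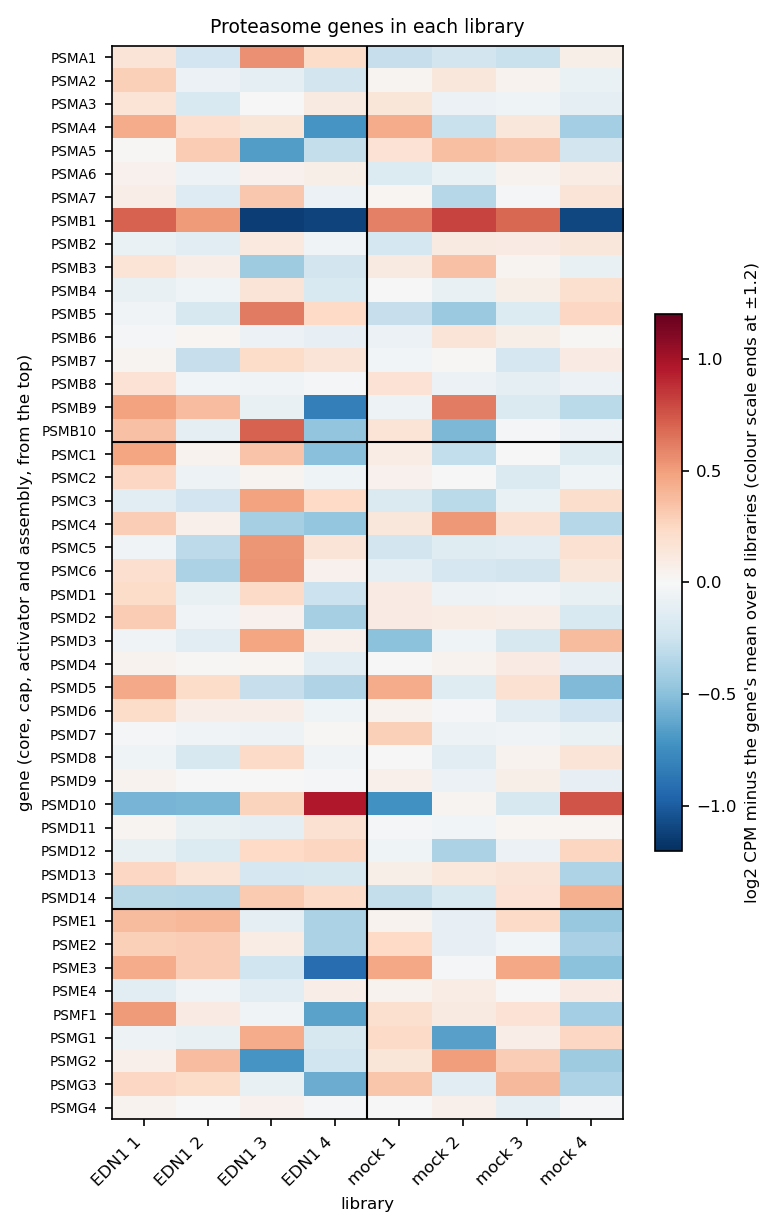
Log2 CPM of each tested proteasome gene minus its mean over the 8 libraries, with EDN1 overexpression libraries left of mock and subunit groups divided by lines (red above, blue below the gene's mean). PSMB1 is low and PSMD10 high in EDN1 3, EDN1 4 and mock 4, and PSMG4 and PSMD9 are near their mean in every library.

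Of the 13 genes whose promoters held the antioxidant response element letters, 10 had positive fold changes. Their median was 0.03 on the log2 scale, with a range of -0.24 to 0.19. Among the 27 tested genes that matched an entry but lacked the letters, 17 were positive, with a median of 0.04. The 6 genes without a match are in neither group, and the difference between the groups was not tested. Of the 11 symbols listed for regulators of subunit transcription, 9 were tested and 0 were called, where 0.00795% of all 12577 genes were called. DDI2 fell below the filter on low counts, and TCF11 had no row under that symbol. The 9 tested had 1 positive (NFE2L1) and 8 negative fold changes, with a median of -0.17. That split was 2 positive and 7 negative with library totals in place of TMM scaling, and 3 and 6 without the 3 libraries that stood apart. NFE2L1 had 66.2, 84.6, 111 and 159 CPM in EDN1 1 to 4, against 83.7, 91.5, 67.2 and 136 CPM in mock, with EDN1 4 and mock 4 the highest. The difference was 0.15 on the log2 scale (SE 0.29). NFE2L2, the related factor of the oxidative stress response, had 129, 209, 149 and 170 CPM in EDN1 1 to 4, against 268, 150, 197 and 249 CPM in mock. EDN1 1 and EDN1 3 lay below the mock range, and the log2 fold change was -0.40 (SE 0.21, unadjusted p = 0.0924, adjusted p = 1, edgeR), or -0.28 without the 3 libraries. The small MAF genes MAFG and MAFK, partners of both factors, differed by -0.26 (SE 0.20) and -0.31 (SE 0.23) on the log2 scale. With 1 library left out, MAFG ran from -0.40 (without EDN1 2) to -0.14 (without EDN1 3), and MAFK from -0.53 (without EDN1 2) to -0.18 (without mock 3).

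Of 16 proteasome factors outside the symbol pattern (cap subunits, deubiquitinases, shuttle proteins and assembly factors), 5 had positive and 11 negative fold changes, and 0 were called. Here and for the lists below, the share called over all genes was 0.00795%, EDN1 alone. SHFM1, a small cap subunit also called SEM1, had 129, 98.8, 118 and 129 CPM in EDN1 1 to 4, against 84.7, 116, 92.1 and 101 CPM in mock. EDN1 2 lay within the mock range, and the log2 fold change was 0.27 (SE 0.15, unadjusted p = 0.106, adjusted p = 1, edgeR). USP14, a deubiquitinase that docks on the cap, had one of -0.17 (SE 0.12), and the shuttle protein gene UBQLN1 one of -0.27 (SE 0.18), or -0.15 without mock 2. POMP, the maturation factor of the core, had 276, 218, 386 and 236 CPM in EDN1 1 to 4, against 243, 212, 247 and 296 CPM in mock; it was named after its values were seen. Among 12 ubiquitin and p97 genes, 7 were positive and 5 negative, and 0 were called. The split turned to 5 positive and 7 negative without EDN1 1, EDN1 4, mock 1 or mock 2, each left out alone. The p97 cofactor gene FAF1 differed by -0.36 on the log2 scale (SE 0.32; -0.57 without mock 4 and -0.19 without EDN1 4) and its relative FAF2 by -0.21 (SE 0.13). Of 25 interferon and class I genes, listed because interferon is known to raise the immunoproteasome, 21 were tested, with 8 positive and 13 negative fold changes and 0 called. The split turned to 16 positive and 5 negative without mock 2, and to 11 positive and 10 negative without EDN1 3. On the log2 scale, IRF1, a transcription factor of that response, differed by -0.28 (SE 0.16), and TAPBP, which helps load class I molecules, by 0.15 (SE 0.14).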

How the data were processed

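RNA from HepG2 cells (4 EDN1 overexpression and 4 mock libraries) went into libraries made with the QuantSeq kit of Lexogen, as the labels' protocols state. The authors deposited raw read counts per gene and a gene length. The submitters' processing notes name Bowtie2, edgeR and the build hg19; no source used here gives versions, the counter or strand use. Groups and replicate numbers came from the sample titles. The table's 25737 rows were summed by symbol (24462 genes, MARCH1 and MARCH2 kept apart). PSMB8 and PSMB9 stood on 8 rows each, 7 of them at 0. Copies named as pseudogenes of 12 of the 48 proteasome genes stand in GENCODE 29, and no source used here says how reads shared with them were counted.

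Genes were filtered by filterByExpr (minimum count 10), leaving 12577, scaled by TMM and tested with edgeR 4.0.16 in R 4.3.3 (quasi-likelihood test), with the group as the only term and Benjamini-Hochberg adjustment. Standard errors are the fold change over the square root of F. The fit was tested on simulated data. No 2 libraries were alike within sampling noise (chi-square per degree of freedom 6.16 to 86.5). By this measure the 3 libraries that stood apart were not all close to each other. EDN1 3 lay at 40.8 from mock 4 and 56 from EDN1 4, against 40.4 from EDN1 1. EDN1 4 lay at 14.3 from mock 4. Alternatives were DESeq2 1.42.0, limma voom (limma 3.58.1), other scalings and filters, a replicate block, and libraries left out; a core without PSMB1 and shares per length were chosen after seeing the data.

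Members, lists and the 3 libraries that stood apart were chosen with earlier results of these data known. Named genes were the 6 cutting subunit genes and, by smallest unadjusted p at 10 CPM or more, 3 a subunit group and 3 a related list, of which 2 are not reported here; other members are described by role, chosen with values seen. CPM values between genes depend on how tags were captured, so levels are compared between libraries only. Promoter sequences are from RefSeq (GRCh38.p14), matched by symbol.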

Additional observations from a re-analysis of the deposited data

Results flagged for a closer look

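In 8 of 92 groups of 4 libraries (46 genes in EDN1 overexpression and in mock), 1 library lay far from the other 3 by Dixon's criterion, where chance flags about 4.6. PSMA6 was 129 CPM in EDN1 2, against 140 to 141 CPM in the other EDN1 overexpression libraries. PSMB8 was 40.7 CPM in EDN1 1 (35.1 to 35.7 CPM in the other 3), and 40.6 CPM in mock 1 (33.4 to 34.3 CPM in the other 3). In mock 1, PSMB2 was 123 CPM against 151 to 155 CPM, and PSMD7 was 378 CPM against 292 to 301 CPM. In mock 4, PSMA1 was 78.8 CPM against 62.1 to 64.6 CPM, PSMD2 was 188 CPM against 226 to 229 CPM, and PSMF1 was 75.7 CPM against 108 to 115 CPM in mock 1 to 3. Mock 1 and mock 4 held 3 each.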

How the results depend on the processing

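Under 20 alternatives, 0 of the 46 proteasome genes were called, and at most 1 had an unadjusted p under 0.05. Brackets give the number of all tested genes at that threshold in the same setting. The gene was PSMA1 with library totals (402 of 12577), without EDN1 2 (641 of 12822) or without mock 4 (576 of 12583). It was PSMC1 without EDN1 4 (738 of 12811). With a term for mock 4, EDN1 3 and EDN1 4 it was PSME1 (526 of 12577). The number of all genes called was 1 in each edgeR and voom alternative and 3 in DESeq2; the cause was not tested. The sign of the fold change held under all 20 in 20 of the 46 genes, 11 positive and 9 negative. With 1 library left out, the median log2 fold change of the core ran from -0.05 (without EDN1 1) to 0.03, that of the cap from 0.01 to 0.08 and that of the activator and assembly genes from -0.10 to 0.05. PSMB9 turned to -0.01 with the replicate block and -0.09 in mock 4, EDN1 3 and EDN1 4 alone, and ran from -0.16 to 0.27 with 1 library left out. PSMB8 ran from -0.01 to 0.11 with 1 library left out, and PSMB7 was -0.04 without mock 4, EDN1 3 and EDN1 4. The cause was not tested. The replicate numbers were not taken as pairs: deviations of same-numbered libraries correlated at 0.48, 0.15, -0.15 and 0.53 for numbers 1 to 4. The replicate block gave 1 call over all genes (550 at an unadjusted p under 0.05, against 359) and 0 among proteasome genes. With 1 library left out, the difference in the immunoproteasome share (EDN1 overexpression minus mock) ran from -0.316 to 0.590 percentage points, and it was 0.554 without mock 4, EDN1 3 and EDN1 4. With 4 libraries a group, the 95% interval reached beyond 1.5-fold in 19 of the 46 genes.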
